A study of Metroxylon sagu with 6 samples.

Results

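The large chaperones of the sago palm leaf are described here: the HSP70, HSP90 and HSP100 (ClpB) families and the chaperonins, with the chaperonin-like RbcX proteins. Members were the Unigenes, meaning transcript sequences assembled from the reads, whose best SwissProt entry carries the name of one of these families and whose best Nr match is in oil palm (Elaeis guineensis) or date palm (Phoenix dactylifera). There were 113 such Unigenes of 99933 listed in the 6 libraries, 63 with oil palm and 50 with date palm in the match. The rule uses annotation alone, not expression.

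Each library was made from the leaf of 1 sago palm (Metroxylon sagu), grown on peat soil in a plantation with no treatment named. The 3 non-trunking palms, which had formed no trunk, were SN7, SN8 and SN9, and the 3 trunking palms, which served as the control, were ST1, ST4 and ST5. The age of the palms is not given in the sources used here, and the leaf RNA comes from all cells of the sample. The recorded positions put the palms of one phenotype together in one place and those of the other in another place, so phenotype and place cannot be told apart. Likewise, fewer cells of a type and less RNA per cell cannot be told apart in such bulk samples.

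Chaperones bind unfolded proteins and help them to fold, to cross membranes or to leave aggregates, and plants keep separate sets in the cytosol, endoplasmic reticulum, plastid and mitochondrion. HSP70 holds and releases short stretches of a chain with the help of J proteins and exchange factors, and HSP90 acts later on proteins that are nearly folded. ClpB pulls chains out of aggregates, and chaperonins enclose a single protein in a barrel that a small cochaperonin closes, a step that the large subunit of Rubisco needs in the plastid.

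Of the 113 members, 28 were HSP90, 23 ClpB, 20 HSP70, 14 of the HSP110 type, 10 chaperonin 60, 9 chaperonin 10 or 20, 5 luminal-binding protein (BiP) and 4 RbcX. By SwissProt name, 41 were assigned to the plastid, 37 to the cytosol, 23 to the mitochondrion and 12 to the endoplasmic reticulum. Entries named chloroplastic or mitochondrial went to the plastid or mitochondrion. Luminal-binding protein, endoplasmin and heat shock 70 kDa protein 17 were assigned to the endoplasmic reticulum. All other names, which state no compartment, were counted as cytosol by default. No member was an activator of HSP90 (AHA1). They were 203 to 4507 nt long with a median of 2218 nt. The members came from 58 sources, of which 23 were assembly clusters holding 78 members and 35 were single Unigenes. Contigs of a cluster can be near-identical, so reads may have been divided between them, and contigs are not independent of one another. Without a genome the Unigenes have no chromosome position, exon or UTR annotation, and their names rest on matches in other species.

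The libraries held 17927176 to 18492907 expected counts, which are estimated fragments per Unigene. The members took 0.542, 0.519 and 0.491% of them in SN7, SN8 and SN9, and 0.597, 0.445 and 0.609% in ST1, ST4 and ST5. Levels per palm are in CPM, expected counts scaled to a common library total with TMM factors, and are always given for SN7, SN8, SN9 and for ST1, ST4, ST5 in that sequence. Levels of different genes or families are compared only in FPKM, which also divides by length. Of the marker lists fixed for the tissue, chlorophyll a-b binding proteins (30 Unigenes) summed to 10719 to 18773 FPKM in non-trunking and 8177 to 17400 FPKM in trunking palms. Over the 6 libraries, 2 flower MADS-box Unigenes summed to 3.03 to 8.22 FPKM, 10 seed oleosin and globulin Unigenes to 50.6 to 101 FPKM and 10 knotted-1-like homeobox Unigenes, named for the shoot meristem, to 297 to 426 FPKM. The leaf markers were thus far above the others, and the meristem list was not at 0.

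Across the whole set no chaperone passed the test between the phenotypes, while the signs of the differences were unevenly spread over the compartments. After the filter on low counts 105 members were tested, and 0 had an adjusted p under 0.05 (edgeR quasi-likelihood, two-sided, Benjamini-Hochberg), as for all 45928 Unigenes tested (0%). At an unadjusted p under 0.05 there were 20 members, of which 8 lay higher in non-trunking palms and 12 lay lower. They make up 19.0% of those tested, beside 9.85% of all Unigenes, with backgrounds of 5.43% in the higher and 4.43% in the lower direction. The palms of the groups did not overlap in 7 members that were higher and 12 that were lower, or 18.1% of the members beside 17.3% of all Unigenes (8.71% higher, 8.55% lower). The median log2 fold change, taken as non-trunking minus trunking, was 0.12 over the members and 0.019 over all Unigenes tested. Without SN7 the median of the members was -0.16, and 48 of the 106 then tested were above 0, against 58 of 105 with all palms.

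Other tests on the same counts called a few plastid members. The Wald test of DESeq2 gave 4 with an adjusted p under 0.05, all lower in non-trunking palms, where it called 2.22% of all Unigenes (1.05% lower, 1.17% higher). The likelihood ratio test of edgeR gave 2, also lower (1.68% of all Unigenes, 0.723% lower, 0.956% higher), and limma on log2(FPKM + 1) gave 0 (0.00904% of all). The 4 Unigenes of DESeq2 were CL823.Contig1 and CL823.Contig3 (chaperonin 60 beta), CL3302.Contig2 (plastid HSP90) and Unigene16873 (RbcX), and the likelihood ratio test called the pair from CL823. When each palm was left out in turn, DESeq2 called between 2 and 6 members, and CL823.Contig1 was the one called every time, with adjusted p values between 1.58e-13 and 6.53e-09. Over all Unigenes DESeq2 then called 1.48% without SN7, 4.02% without SN8, 1.94% without SN9, 2.27% without ST1, 2.85% without ST4 and 1.54% without ST5. The calls were not all in the lower direction nor all plastid: 3 of 5 were higher in non-trunking palms without SN9, 2 of 5 without ST1 and 1 of 2 without ST5. In these fits CL823.Contig3 passed without SN7 and without SN8, and CL3302.Contig2 and Unigene16873 passed without SN8 and without ST1.

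By the compartment assigned from the SwissProt name, with cytosol as the default, the signs of the log2 fold changes were as follows. In the plastid 28 of 39 tested members were lower in non-trunking palms by sign, with a median of -0.21. At an unadjusted p under 0.05 (edgeR quasi-likelihood), 9 plastid members were lower and 2 higher. Together they were 28.2% of the plastid members tested, beside 9.85% of all Unigenes (4.43% lower, 5.43% higher). These 9 were among the 12 members lower at that p, but 3 of them were contigs of CL823 and 4 of CL3302. In the cytosol 27 of 33 were above 0 with a median of 0.44, and in the endoplasmic reticulum all 12 were, also with a median of 0.44. The mitochondrial members were mixed, with 13 of 21 below 0 and a median of -0.16. Leaving out each palm gave medians from -0.45 to -0.052 for the plastid, 0.23 to 0.56 for the cytosol and 0.14 to 0.62 for the endoplasmic reticulum. Without SN7, 9 of the 12 entries of the endoplasmic reticulum were above 0, and 11 without ST1. In the plastid 17 of 39 were above 0 without SN8 and 6 without SN7. The difference between compartments was not tested, since the members of a compartment share clusters and palms.

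**Figure D1:**
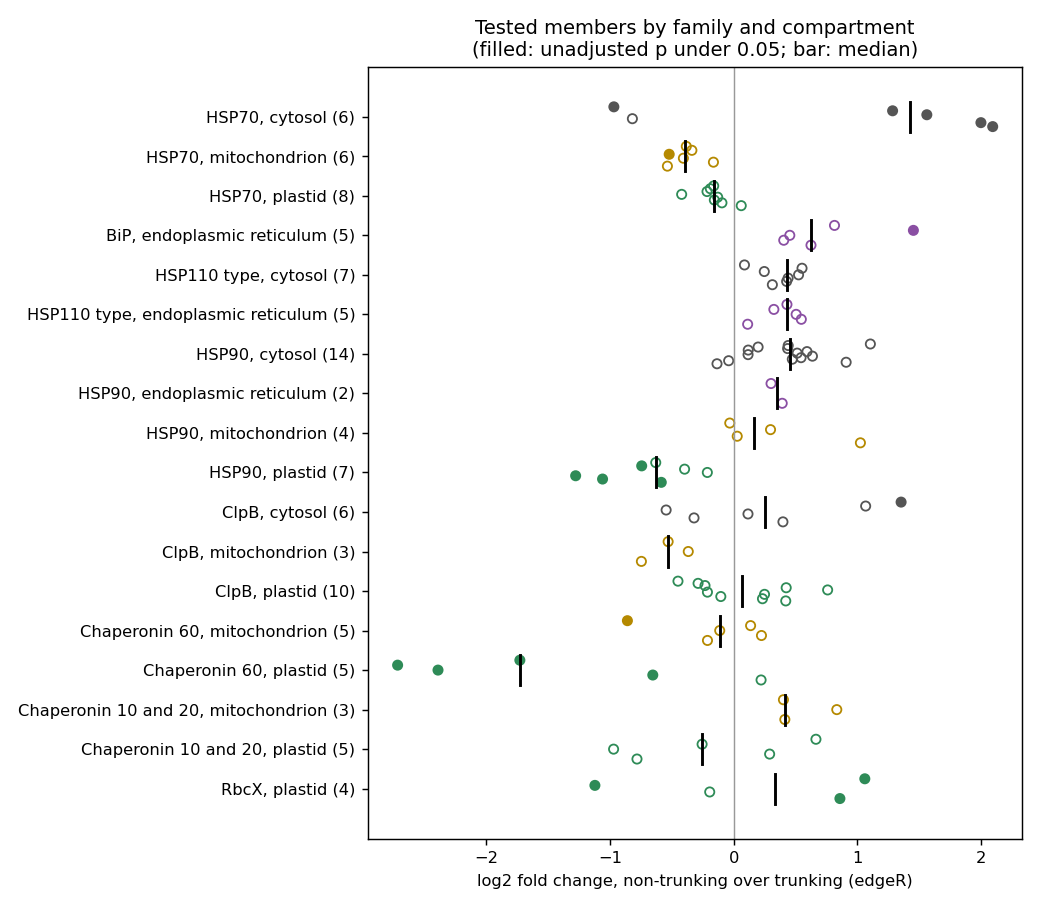
Log2 fold change (non-trunking minus trunking, edgeR) of the 105 tested members on the horizontal axis, by family and compartment on the vertical axis, 1 point per Unigene, filled at an unadjusted p under 0.05 and coloured by compartment, with a bar at the median. Plastid chaperonin 60 and plastid HSP90 lie at the low end, with medians of -1.73 and -0.63, and cytosolic HSP70 spreads to both sides of 0.

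Cytosolic HSP90 had the highest summed FPKM of the members' sets by family and compartment. The rule leaves most contigs of the cytosolic heat shock cognate cluster CL10388 out, and the whole cluster summed higher than cytosolic HSP90 in every palm, at 1824, 1956 and 1146 FPKM in non-trunking and 1831, 714 and 1944 FPKM in trunking palms. The FPKM of the 15 cytosolic HSP90 Unigenes summed to 929 ± 115 in non-trunking and 752 ± 240 in trunking palms (SD, n = 3 each). Cytosolic HSP70 members followed with 234 ± 40.3 FPKM in non-trunking and 356 ± 126 FPKM in trunking palms. Plastid chaperonin 10 and 20 had 187 ± 33.5 FPKM in non-trunking and 196 ± 30.0 FPKM in trunking palms, and RbcX had 151 ± 21.9 FPKM in non-trunking and 217 ± 71.3 FPKM in trunking palms. BiP summed to 136 ± 52.9 FPKM in non-trunking and 103 ± 40.4 FPKM in trunking palms, and plastid HSP70 to 107 ± 11.7 FPKM in non-trunking and 115 ± 13.1 FPKM in trunking palms. In these 6 sets the ranges of the groups overlapped. Plastid HSP90, at 84.1 ± 16.1 FPKM in non-trunking and 157 ± 27.2 FPKM in trunking palms, had groups that did not. The plastid members together stood apart by group, at 626, 536 and 596 FPKM in non-trunking and 709, 836 and 794 FPKM in trunking palms. Totals of the cytosol, endoplasmic reticulum and mitochondrion overlapped between the groups. The cytosol summed to 1367, 1377 and 1154 FPKM in non-trunking and 1490, 813 and 1358 FPKM in trunking palms. That total overlapped although 27 of 33 tested cytosolic members were above 0 by sign. With 3 palms against 3 the smallest two-sided p of an exact permutation test is 0.1, so sums are given without a test.

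**Figure D2:**
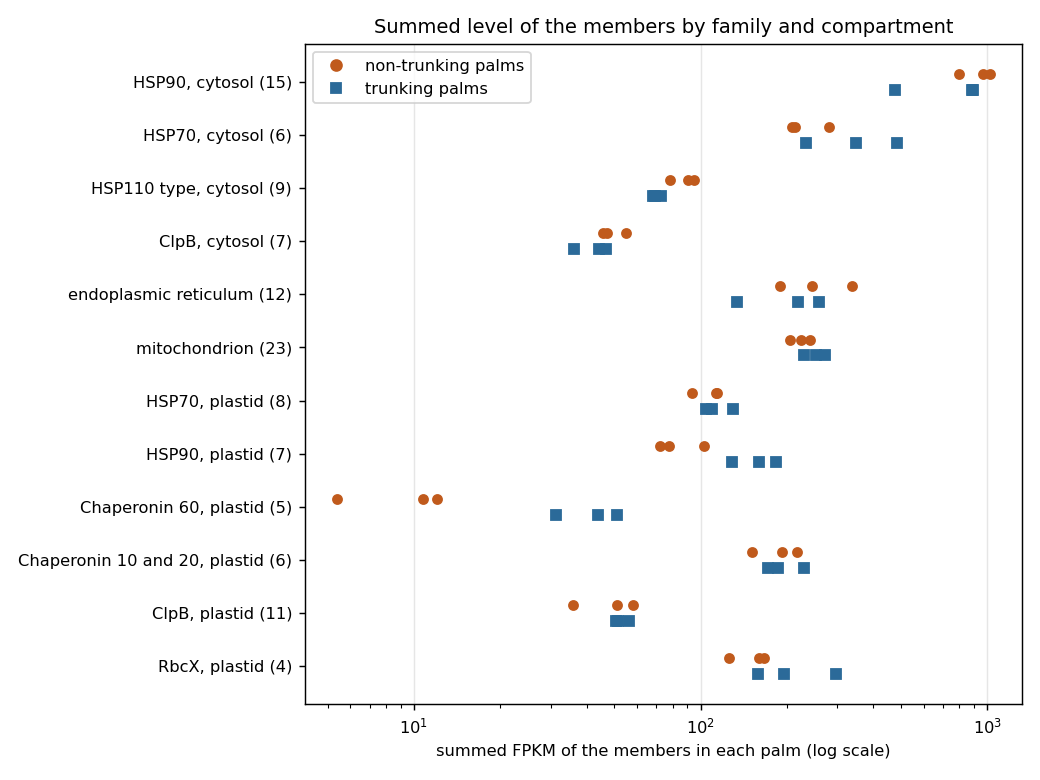
Summed FPKM of the members of each family and compartment (horizontal axis, log scale) in each of the 6 palms, 1 point per palm, with non-trunking palms above trunking palms, the number of members in brackets, and the endoplasmic reticulum and mitochondrion pooled over families. Of the sets plotted, the 5 members of plastid chaperonin 60 show the widest gap between the groups. They sum to 5.40 to 12.0 FPKM in non-trunking and 31.2 to 50.9 FPKM in trunking palms. Subunits named Rubisco large subunit-binding protein are not in this set.

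Plastid chaperonin 60 beta, named for a subunit of the plastid barrel, held the members with the lowest values in non-trunking relative to trunking palms. What the beta 4 subunit folds in sago palm was not tested. CL823.Contig1, whose SwissProt entry is the beta 4 subunit and whose Nr match is a date palm Rubisco large subunit-binding protein beta, had 7.32, 10.5 and 10.9 CPM in non-trunking and 48.1, 65.2 and 75.5 CPM in trunking palms. The non-trunking palms lay close together, far below the lowest trunking palm. The log2 fold change was -2.72 (SE 0.27, p 2.86e-05, edgeR adjusted p 0.161), and it lay between -2.88 and -2.56 when each palm was left out. In DESeq2 the adjusted p was 3.97e-13.

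The other contigs of this cluster were lower in non-trunking palms too. CL823.Contig3, matched to the beta 1 subunit, had 0.399, 2.73 and 1.93 CPM in non-trunking and 7.80, 10.02 and 8.96 CPM in trunking palms, a log2 fold change of -2.39 (SE 0.62, edgeR adjusted p 0.317). CL823.Contig2, matched to beta 4, had 1.33, 5.69 and 1.73 CPM in non-trunking and 6.03, 16.9 and 6.16 CPM in trunking palms, with a fold change of -1.73 (SE 0.69, edgeR adjusted p 0.484). In both contigs the groups stood apart, for CL823.Contig2 by a narrow gap between SN8 and ST1. With the 3 contigs summed, which removes the division of reads between them, the cluster had 9.05, 18.9 and 14.5 CPM in non-trunking and 61.97, 92.1 and 90.6 CPM in trunking palms. The log2 fold change of the sum was -2.53 (SE 0.32, edgeR adjusted p 0.121 over clusters).

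Other Unigenes for the same plastid barrel lay on both sides of 0. CL6859.Contig2, matched to the alpha 2 subunit, had 4.33, 3.40 and 4.00 CPM in non-trunking and 6.60, 5.59 and 6.27 CPM in trunking palms, a log2 fold change of -0.65 (SE 0.25), and the other contig of its cluster had 0.22. Further subunits carry the SwissProt name Rubisco large subunit-binding protein and so fall outside the members. The 6 Unigenes named as its whole beta subunit summed to 576, 350 and 441 CPM in non-trunking and 437, 489 and 531 CPM in trunking palms with overlapping groups. Unigene9627, the alpha subunit and the most abundant of this kind per length, had 266, 165 and 203 CPM in non-trunking and 274, 238 and 342 CPM in trunking palms, a log2 fold change of -0.43 (edgeR adjusted p 0.684). The groups overlapped there as well, between ST4 and SN7. Unigene13722, another alpha entry, lay the other way without overlap, at 37.7, 25.8 and 29.8 CPM in non-trunking and 21.1, 20.1 and 19.96 CPM in trunking palms, or 0.61 (SE 0.20, edgeR adjusted p 0.421). Of 5 Unigenes matched to a fragment of the alpha subunit 4 were above 0, up to 1.33, and the beta fragment had 1.28, all with overlapping groups.

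The cochaperonins that cap the plastid barrel pointed to both sides of 0. CL2411.Contig2, a 20 kDa chaperonin and the most abundant of the group in FPKM, had 130, 77.1 and 81.9 CPM in non-trunking and 89.7, 67.7 and 79.2 CPM in trunking palms, a log2 fold change of 0.29. CL2411.Contig1 had 58.7, 42.6 and 45.3 CPM in non-trunking and 122, 47.9 and 82.1 CPM in trunking palms, with -0.78 (SE 0.36, edgeR adjusted p 0.545). For the summed cluster CL2411 the value was -0.17 (edgeR adjusted p 0.873), so the sign of CL2411.Contig2 alone was not that of its cluster. Unigene10395, a plastid 10 kDa chaperonin, had a log2 fold change of 0.66, with 65.8, 28.8 and 38.3 CPM in non-trunking and 26.2, 34.1 and 23.4 CPM in trunking palms.

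Plastid HSP90, an HSP90 of the stroma that takes part in chloroplast formation in Arabidopsis, was below trunking palms in all 7 of its Unigenes by sign, with a median of -0.63 that lay between -0.90 and -0.42 when each palm was left out. CL3302.Contig2, matched to Arabidopsis HSP90-5, had 101, 106 and 79.8 CPM in non-trunking and 155, 192 and 249 CPM in trunking palms. The groups did not overlap, and the log2 fold change was -1.06 (SE 0.27, edgeR adjusted p 0.311, DESeq2 adjusted p 0.0331). CL3302.Contig3 had 16.2, 30.8 and 44.5 CPM in non-trunking and 62.4, 92.3 and 67.5 CPM in trunking palms, a fold change of -1.28 (SE 0.39, edgeR adjusted p 0.382). CL3302.Contig1 and CL3302.Contig6 had -0.59 and -0.74, also without overlap.

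All 6 contigs of CL3302 are members, so the cluster sum covers the gene or genes behind them. It came to 159, 167 and 164 CPM in non-trunking and 273, 329 and 384 CPM in trunking palms. The non-trunking palms were close together, and each was below each trunking palm. The log2 fold change of the sum was -1.01 (SE 0.21, edgeR adjusted p 0.182 over clusters), and leaving out each palm kept that of CL3302.Contig2 between -1.21 and -0.87.

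RbcX proteins are small plastid chaperones that hold newly folded Rubisco large subunits. Unigene16873, matched to RbcX1, had 48.4, 55.2 and 38.8 CPM in non-trunking and 82.3, 129 and 98.9 CPM in trunking palms, for a log2 fold change of -1.12 (SE 0.26, edgeR adjusted p 0.269, DESeq2 adjusted p 0.0214). Unigenes matched to RbcX2 lay on the other side or near 0. Unigene29511 had 12.0, 9.38 and 5.53 CPM in non-trunking and 3.41, 5.09 and 4.40 CPM in trunking palms, a log2 fold change of 1.06 (SE 0.35, edgeR adjusted p 0.420), and CL9565.Contig1 had 0.86, whereas CL9565.Contig2 had -0.19.

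**Figure D3:**
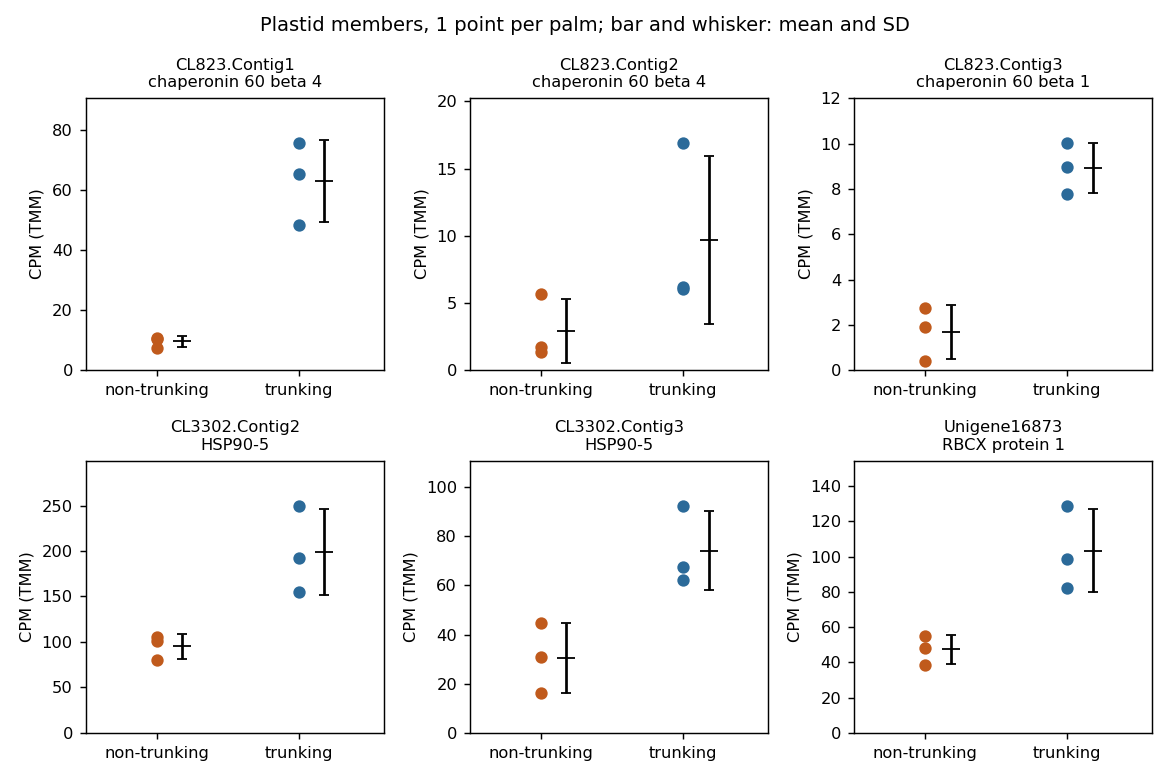
CPM of 6 plastid members (vertical axes, linear and from 0), with non-trunking palms left of trunking palms, 1 point per palm, and the mean and SD beside the points. CL823.Contig1 lies between 7.32 and 10.9 CPM in non-trunking and between 48.1 and 75.5 CPM in trunking palms, and RbcX1 (Unigene16873) between 38.8 and 55.2 CPM in non-trunking and between 82.3 and 129 CPM in trunking palms.

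The remaining plastid chaperones had no member with an unadjusted p under 0.05. Plastid HSP70, which draws proteins into the stroma, was below 0 in 7 of 8 Unigenes, but its log2 fold changes lay within -0.42 and 0.061. Without SN8, 5 of the 8 were above 0, with a median of 0.068, and 3 were without ST5. CL5714.Contig2 had 208, 134 and 145 CPM in non-trunking and 160, 126 and 181 CPM in trunking palms. Among plastid ClpB, 5 of the 10 tested Unigenes were above 0, and 1 of 10 without SN7. The member of highest FPKM in the ClpB family, CL3737.Contig6, had 13.2, 10.1 and 15.03 FPKM in non-trunking and 16.3, 11.2 and 18.4 FPKM in trunking palms, a log2 fold change of -0.21. Among the leaf markers, the Rubisco small subunit (1 Unigene) had 10328, 4732 and 7632 FPKM in non-trunking and 3923, 7117 and 3787 FPKM in trunking palms. The groups overlapped, and each spread widely. The part of leaf composition in the plastid values was not tested.

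In the endoplasmic reticulum, BiP, the HSP70 that receives proteins entering the secretory route, and its HSP90 and HSP110 partners had log2 fold changes above 0 without exception in the fit on 6 palms. CL1431.Contig1, the BiP Unigene of highest FPKM, had 241, 91.1 and 105 CPM in non-trunking and 74.5, 87.0 and 168 CPM in trunking palms. SN7 was far above the other non-trunking palms, and the log2 fold change of 0.40 (SE 0.49, edgeR adjusted p 0.834) was -0.17 without SN7. Another contig of the cluster, CL1431.Contig4, did separate the palms, at 48.3, 25.0 and 22.4 CPM in non-trunking and 6.43, 11.4 and 17.05 CPM in trunking palms, with 1.45 (SE 0.45, edgeR adjusted p 0.389). Over the whole cluster of 5 contigs the value was 0.51 (SE 0.48, edgeR adjusted p 0.742).

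Endoplasmin, the HSP90 of this compartment, also had its highest value in SN7. Its 2 contigs summed to 472, 252 and 312 CPM in non-trunking and 202, 298 and 318 CPM in trunking palms, so SN7 was highest, ST1 was lowest and the groups overlapped. HSP70-17, the HSP110 type protein of this compartment, summed over 5 Unigenes to 63.2, 41.9 and 43.3 CPM in non-trunking and 26.1, 38.8 and 42.8 CPM in trunking palms. Its log2 fold changes lay between 0.11 and 0.55, and 0 of the 5 had an unadjusted p under 0.05.

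The cytosolic HSP70 members lay on both sides of 0. CL10388.Contig13, a heat shock cognate 70 kDa protein that is the longest member and has the highest mean FPKM of all members (212), had 607, 886 and 581 CPM in non-trunking and 1720, 701 and 1237 CPM in trunking palms. ST4 lay within the range of the non-trunking palms, and the log2 fold change was -0.82 (SE 0.42, edgeR adjusted p 0.588). Unigene23349, also a heat shock cognate entry, had 9.98, 11.8 and 10.6 CPM in non-trunking and 29.2, 14.7 and 19.4 CPM in trunking palms, a fold change of -0.97 (SE 0.28, edgeR adjusted p 0.367) without overlap. CL10388.Contig3, in contrast, had 19.6, 6.14 and 3.75 CPM in non-trunking and 2.79, 1.58 and 2.53 CPM in trunking palms, or 2.09 (SE 0.65, edgeR adjusted p 0.396).

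The cluster of the heat shock cognates is larger than its members. CL10388 has 19 contigs, of which 3 are members, because 12 of the others carry as SwissProt entry a mediator subunit of the same HSP70 family and only 3 of the 16 others have their best Nr match in oil palm or date palm. The members summed to 638, 901 and 587 CPM in non-trunking and 1726, 703 and 1241 CPM in trunking palms, and the other contigs to 5467, 4450 and 2390 CPM in non-trunking and 3997, 1391 and 4809 CPM in trunking palms. The whole cluster had 6105, 5351 and 2976 CPM in non-trunking and 5723, 2094 and 6050 CPM in trunking palms. SN9 and ST4 were the lowest palms of their groups, the groups overlapped, and the log2 fold change of the cluster was 0.054 (SE 0.54, edgeR adjusted p 0.982). The sign of CL10388.Contig13 alone therefore does not carry over to the cluster.

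Contigs of CL10388 outside the members, chosen after their values were seen, show how unevenly reads fell on the copies. CL10388.Contig2 had 0, 0 and 0.346 CPM in non-trunking and 64.0, 73.2 and 0 CPM in trunking palms, and CL10388.Contig14 had 913, 224 and 131 CPM in non-trunking and 0.797, 2.03 and 404 CPM in trunking palms. In both contigs ST5 differed from ST1 and ST4, so the split followed single palms and not the phenotype alone. Whether these contigs are alleles, gene copies or assembly forms cannot be told from the files.

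**Figure D4:**
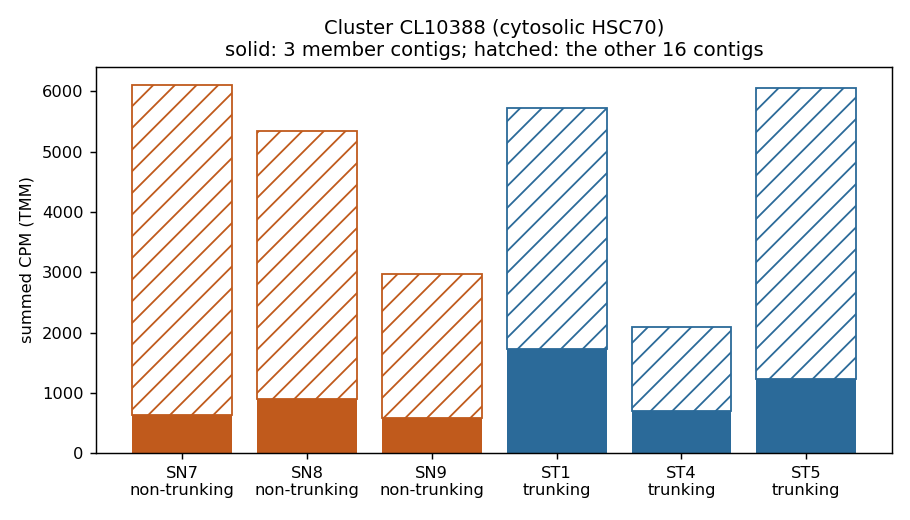
Summed CPM of the heat shock cognate cluster CL10388 in each palm, divided into its 3 members and its 16 other contigs, with non-trunking palms left of trunking palms. The other contigs make up most of each bar, and the totals of 2976 in SN9 and 2094 in ST4 are the lowest of their groups.

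HSP70-8, another cytosolic HSP70, had log2 fold changes above 0 in both of its Unigenes. CL746.Contig2 had 47.5, 34.9 and 30.2 CPM in non-trunking and 25.9, 9.61 and 10.7 CPM in trunking palms, or 1.28 on the log2 scale (SE 0.43, edgeR adjusted p 0.418). The groups did not overlap, though SN9 and ST1 were close. Its partner CL746.Contig1 had 1.56, and the cluster of both had 1.34 (SE 0.43, edgeR adjusted p 0.348).

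HSP110 type proteins of the cytosol, which exchange the nucleotide of HSP70, were above 0 in all 7 tested Unigenes, with a median of 0.43 and a range of 0.087 to 0.55, and in 6 of 7 without SN8 or without ST4. None had an unadjusted p under 0.05. CL1672.Contig3 (HSP70-14), the highest of them in FPKM, had 93.2, 68.8 and 65.6 CPM in non-trunking and 59.3, 48.6 and 59.8 CPM in trunking palms, and its log2 fold change was 0.44 (SE 0.23, edgeR adjusted p 0.590). The 9 Unigenes of this kind summed to 90.3, 78.2 and 94.6 FPKM in non-trunking and 69.3, 68.1 and 72.5 FPKM in trunking palms, without overlap.

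Cytosolic HSP90, the partner of signalling proteins and receptors, was mostly above 0 by sign, but its palms differed widely within each phenotype. In 12 of 14 tested Unigenes the log2 fold change was above 0 (median 0.46), 0 had an unadjusted p under 0.05, and the groups overlapped in 13. The median was 0.17 without ST4, with 10 of 14 above 0, and 0.18 without SN7. Unigene9574 (HSP81-1), the HSP90 member of highest FPKM, had 497, 448 and 362 CPM in non-trunking and 450, 220 and 472 CPM in trunking palms. Its log2 fold change of 0.20 (SE 0.37, edgeR adjusted p 0.899) was -0.085 without ST4. Unigene9571 was the one without overlap, at 325, 252 and 209 CPM in non-trunking and 193, 123 and 206 CPM in trunking palms, with 0.59 (SE 0.31, edgeR adjusted p 0.592), and SN9 and ST5 nearly met.

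The same palms were low across this family. SN9 was the lowest non-trunking palm in 13 of the 14 Unigenes and ST4 the lowest trunking palm in 12, while SN7 was the highest non-trunking palm in 13. Both SN9 and ST4 were the lowest of their groups in 11 of the 14. Over all Unigenes tested, SN9 was lowest in 31.4%, ST4 in 35%, SN7 highest in 36%, and SN9 and ST4 both lowest in 15.1%. Over all 105 tested members the counts were 42 for SN9, 58 for ST4, 78 for SN7 and 29 for SN9 and ST4 together. These ranks are in CPM and so depend on the TMM factors. In FPKM, which uses no TMM factor, cytosolic HSP90 summed to 1021, 964 and 800 in non-trunking and 888, 475 and 892 in trunking palms. SN9 and ST4 were the lowest there too. SN7 and SN8 were closer than in CPM, where the sums were 2719 and 2151. These Unigenes carry the same few SwissProt entries, so their counts are not independent of one another.

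**Figure D5:**
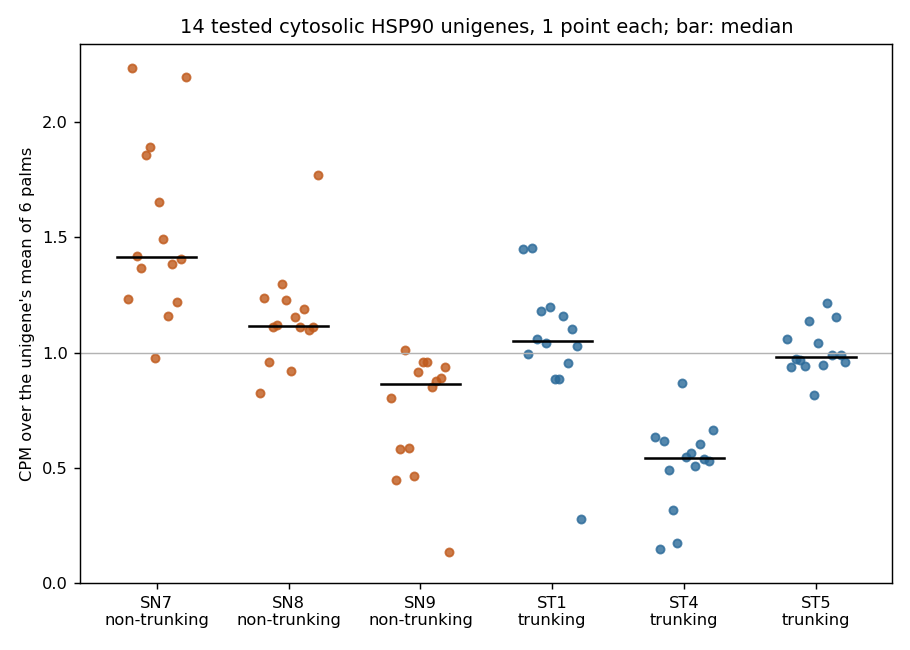
CPM of each of the 14 tested cytosolic HSP90 Unigenes divided by its mean over the 6 palms (vertical axis), 1 point per Unigene and a bar at the median, with non-trunking palms left of trunking palms. The medians are 1.41 in SN7, 1.12 in SN8 and 0.865 in SN9, and 1.05 in ST1, 0.543 in ST4 and 0.981 in ST5.

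ClpB1, the cytosolic HSP100 that works with HSP70 on aggregates, was divided over 7 contigs of CL2925. CL2925.Contig7 had 26.2, 23.9 and 9.48 CPM in non-trunking and 10.8, 3.87 and 8.63 CPM in trunking palms, a log2 fold change of 1.35 (SE 0.51, edgeR adjusted p 0.456). SN9 was below ST1, so the groups overlapped. CL2925.Contig2 and CL2925.Contig5 lay below 0, with -0.32 and -0.55, and the sum of the cluster had 0.22 (SE 0.23, edgeR adjusted p 0.781).

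Of 21 tested mitochondrial members, 0 were higher and 2 lower at an unadjusted p under 0.05. That share of 9.52% is near the 9.85% of all Unigenes. The mitochondrial HSP70, which drives import into the matrix, was below 0 in 6 of 6 Unigenes with values between -0.54 and -0.16, and its summed level was 64.8, 76.4 and 75.2 FPKM in non-trunking and 93.7, 81.9 and 114 FPKM in trunking palms. In CPM the sums were 183, 180 and 157 in non-trunking and 227, 173 and 264 in trunking palms, so the groups overlapped on that scale and not in FPKM. CL1662.Contig4 was the one with an unadjusted p under 0.05 and had 15.97, 16.4 and 15.4 CPM in non-trunking and 21.6, 19.8 and 27.1 CPM in trunking palms, with -0.52 (SE 0.19, edgeR adjusted p 0.452). Its fold change was small, but the non-trunking palms differed little from one another.

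Of the mitochondrial chaperonins, the barrel subunit of highest FPKM, CL2581.Contig3 (CPN60-2), had 43.1, 33.7 and 34.7 CPM in non-trunking and 43.0, 35.3 and 42.1 CPM in trunking palms, a log2 fold change of -0.11. Unigene25510 (CPN60-like 2) had 2.80, 3.29 and 3.65 CPM in non-trunking and 5.58, 5.04 and 7.09 CPM in trunking palms, with -0.86 (SE 0.28, edgeR adjusted p 0.418). The 3 Unigenes of the 10 kDa cochaperonin were above 0, with 0.40 to 0.83. Mitochondrial HSP90 (HSP90-6) summed to 164, 96.6 and 134 CPM in non-trunking and 128, 111 and 147 CPM in trunking palms, so the groups overlapped. The 3 tested ClpB Unigenes of the mitochondrion were all below 0, with a median of -0.53.

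The 8 members that did not pass the filter on low counts were of low level in every library. They were 4 ClpB, 2 HSP110 type, 1 HSP90 and 1 chaperonin 20 Unigene, and the highest value among them was 1.04 CPM, for CL2925.Contig4 in ST5, which was at 0 in the other palms. One tested member, CL6847.Contig1, has a ClpB3 entry in SwissProt but an Nr match to an S phase cyclin A-associated protein, so its name is uncertain. In its case the level was at most 2.22 CPM.

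The partners of these chaperones were taken by words in the SwissProt name, with the same rule on the Nr match. J proteins, which deliver substrates to HSP70, showed no common sign: of 145 tested, 72 were above 0, and at an unadjusted p under 0.05 there were 4 higher and 12 lower, 11.0% of them beside 9.85% of all Unigenes. The J protein of highest FPKM, CL9442.Contig2, had 1144, 3345 and 1571 CPM in non-trunking and 3658, 2731 and 3326 CPM in trunking palms, a log2 fold change of -0.68 (edgeR adjusted p 0.710). SN8 lay among the trunking palms. The exchange factors and other cochaperones of HSP70 were above 0 in 31 of 38 tested, with 6 higher and 0 lower at that p (15.8%) and a median of 0.52. Without SN7 this median was 0.061, and 27 of the 42 then tested were above 0.

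Cochaperones of HSP90, which here were SGT1 entries, the immunophilins FKBP62 and FKBP65 and the Hsp70-Hsp90 organizing protein, were above 0 in 28 of 35 tested, with a median of 0.22. At an unadjusted p under 0.05 there were 4 higher and 0 lower, or 11.4% of them. The median was 0.042 without ST4 and 0.055 without SN7. Some entries named for both HSP70 and HSP90 stand in both lists. The other chaperonins (Rubisco large subunit-binding and cytosolic T-complex proteins) had 1 higher and 1 lower of 48 (4.17%). The heat stress transcription factors, which include regulators of heat shock genes, had 4 higher and 8 lower of 63 (19.0%). The backgrounds were 5.43% higher and 4.43% lower. Small heat shock proteins had 6 higher and 1 lower of 37 (18.9%), a median of 0.47, and SN9 and ST4 both the lowest of their groups in 20. Their median was 0.17 without SN7, with 21 of 37 above 0, and 1.26 without ST1. The list of other Clp ATPases, which unfold proteins for the plastid protease, was taken by name and so includes 1 CLPT1 entry. The 6 tested Unigenes of this list had 0 in either direction. The highest of them in FPKM, CL9914.Contig2 (a ClpA homolog), had 539, 615 and 532 CPM in non-trunking and 883, 707 and 1118 CPM in trunking palms, and its log2 fold change was -0.68 (edgeR adjusted p 0.529) without overlap.

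A heat stress transcription factor had the most negative log2 fold change of these lists and was chosen after its values were seen. CL8556.Contig2, matched to factor C-1a, had 0.932, 2.46 and 0.395 CPM in non-trunking and 47.6, 46.6 and 63.2 CPM in trunking palms. Its log2 fold change was -5.38 (edgeR adjusted p 0.161), and that of the other contig of the cluster, CL8556.Contig1, was -4.17. Unigene19969, matched to the plastid J protein dnaJ 20 and chosen in the same way, had -3.86. The other 2 Unigenes with that entry were above 0, at 0.56 and 0.61. Neither Unigene19969 nor the pair from CL8556 passed the quasi-likelihood test over all Unigenes. DESeq2 and the likelihood ratio test gave all 3 an adjusted p under 0.05, and limma called 1 of the pair.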

How the data were processed

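The authors sequenced leaf RNA on the BGISEQ-500 platform, assembled clean reads with Trinity, clustered contigs with TGICL, mapped reads back with Bowtie2 and quantified with RSEM. The tool versions are not given in the sources used. The authors deposited, per Unigene and library, the expected count from RSEM, an estimated count that was not normalized, the FPKM, which they scaled for length and library total, the length and the best match in 7 databases. Unigenes under 0.01 FPKM in a library are not listed there and were set to 0.

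Files were joined in pandas 2.3.3 and NumPy 2.4.6 under Python 3.11.15. Expected counts were rounded and fitted on all Unigenes with edgeR 4.0.16 under R 4.3.3 (TMM, filterByExpr, quasi-likelihood test, Benjamini-Hochberg, threshold 0.05). The SE is the log2 fold change divided by the square root of F. DESeq2 1.42.0 (46984 empty adjusted p values kept empty), the likelihood ratio test of edgeR, limma 3.58.1 on log2(FPKM + 1) and log2(FPKM + 0.1), other scalings and filters, sums per cluster, members without the Nr condition, and leaving out each palm were the alternatives. The code was tested on simulated data. Figures were drawn with Matplotlib 3.10.9.

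Samples were grouped by the labelled phenotype. Replicates are separate palms, and no batch is named. Spread between palms, with 3 per group, limits precision more than counting error at these depths.

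Families followed the SwissProt entry, and any other entry formed its own family, as RbcX did. Partner words were matched in the protein name, with p23 as a whole word. Named were, in each family, the member of highest mean FPKM and that of smallest p, the 5 largest changes in each direction among members with a mean of at least 5 CPM and groups that do not overlap, and the contigs of CL823. Other Unigenes given with values illustrate their family or cluster and were chosen after their values were seen. The members, the lists and the tests were chosen with earlier results of these data known. Unigene sequences were not used here.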

Additional observations from a re-analysis of the deposited data

How the results depend on the processing

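Under the other scalings and filters, and under limma and the quasi-likelihood fit without each palm, 0 members had an adjusted p under 0.05. DESeq2 gave 4 and the likelihood ratio test 2. DESeq2 without each palm in turn, an alternative chosen after seeing the data, gave 2 to 6. Members higher at an unadjusted p under 0.05 numbered 8, and 2 to 10 without each palm (2 without SN7, without ST4 or without ST5). Members lower numbered 12, and 7 to 15 without each palm. With counts summed per cluster, which leaves 55 clusters, 2 were higher and 5 lower. The background with all palms was 5.43% higher and 4.43% lower of all Unigenes tested. Shares over all Unigenes or clusters are not given for the fits without a palm or per cluster. Those counts are therefore not read as a result about the members. Among 315 other values of the named members, 305 kept their sign and their side of the threshold, and 6, all under DESeq2 or the likelihood ratio test, passed it. Many of these members were named for a small p or for groups that do not overlap. The main test also called 0 of all Unigenes. The count of 305 was thus largely set by the choice of members and is no measure of robustness. The sign reversed for CL1431.Contig1 without SN7 (-0.17, with a range of -0.17 to 0.84 over the palms left out), CL2411.Contig2 and CL10388.Contig13 with clusters summed (-0.17 and 0.054) and Unigene9574 without ST4 (-0.085, range -0.085 to 0.38). The cause was not tested, except that the cluster sums add contigs by construction. The median log2 fold change of all Unigenes stayed between -0.058 and 0.046. Without each palm, the family medians ranged from -0.34 to 0.14 for ClpB (-0.10 with all palms, above 0 without SN8), 0.020 to 0.57 for RbcX (0.33), 0.066 to 0.49 for chaperonin 10 and 20 (0.35), 0.043 to 0.37 for HSP90 (0.20), 0.33 to 1.03 for BiP (0.62), 0.24 to 0.52 for the HSP110 type (0.43), -0.36 to -0.053 for HSP70 (-0.18) and -0.53 to -0.33 for chaperonin 60 (-0.43). No paired analysis was possible because the groups share no replicate numbers.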

Other observations

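A further 127 Unigenes carry the same SwissProt words but have no oil palm or date palm Nr match, and so are not members. Those that lie in clusters with members are already counted in the cluster sums above. One is CL10388.Contig15, with 232, 309 and 189 CPM in non-trunking and 406, 107 and 240 CPM in trunking palms. All 127 Unigenes, this contig included, summed to 323, 423 and 248 CPM in non-trunking and 560, 155 and 350 CPM in trunking palms. Of the 127 Unigenes, 40 had their best Nr match in tobacco (Nicotiana tabacum). These 40 summed to 0.998, 17.02 and 0.296 CPM in non-trunking and 60.8, 8.19 and 29.1 CPM in trunking palms. Their level followed single palms, and the groups overlapped.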
